A study of Schizosaccharomyces pombe with 2 samples.

Results

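The ght4 locus is a stretch of the left arm of chromosome II of the fission yeast Schizosaccharomyces pombe that holds the neighbouring genes mal1, ght4 and frp1. It was taken as every tile with a named position (in kb, as all tile positions here) from 145.1 to 170.0 kb on a 2-colour tiling array, which gave 83 of the 41251 chromosome tiles, and all 83 could be used on both arrays. The locus was chosen because ght4 had a large difference in BrdU signal between the strains, so the differences given here describe it and support nothing. The wider window keeps the tiles around ght4 in view, and the tiles at its edges did not stand apart from those just outside. At the tile at 145.2 kb, just inside, the ratio was 1.27 in sap1-1 and 1.21 in wild-type, and at 144.9 kb, just outside, it was 1.49 in sap1-1 and 1.35 in wild-type. At the other edge the tile at 169.8 kb had -0.56 in sap1-1 and -0.96 in wild-type, and the tile at 170.1 kb, just outside, had -0.95 in sap1-1 and -1.06 in wild-type.

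The study compared DNA synthesis in hydroxyurea between 2 synchronous cultures, 1 of strain sap1-1 (genotype cdc10-v50 sap1-1) and 1 of the strain labelled wild-type (genotype cdc10-v50), both in the 972h background. Each strain also carried a thymidine kinase module (Pnmt1-TK) and a nucleoside transporter module (Padh1-hENT), which let cells take up and use BrdU, so wild-type here refers to sap1 alone. Both cultures were arrested for 4 h at 35 °C and released at 26 °C with 10 mM hydroxyurea and 200 µM BrdU, then stopped with 0.1% sodium azide. Each array set BrdU-immunoprecipitated DNA (Cy5) against whole-cell extract DNA, the input (Cy3), and with 1 array per strain no difference has a replicate and none was tested.

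Replication starts at many origins along the fission yeast chromosomes, and these tend to lie in AT-rich spacers between genes. Hydroxyurea starves cells of deoxynucleotides, so forks that left early origins slow down soon after and BrdU marks the DNA close to where they began. Sap1 is an essential DNA-binding protein of fission yeast that takes part in the control of replication forks. The genes of the locus serve nutrition. Mal1 is a maltase that splits maltose, Ght4 belongs to the hexose transporter family, and Frp1 is a ferric reductase that makes iron ready for uptake. Their neighbours encode the transporter Thi7, the uridine ribohydrolase Urh1, the iron transporter Pcl1 and the isocitrate lyase Icl1.

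The spacers on both sides of ght4 are shown with one from each flank of the locus. The sequences are from the RefSeq assembly ASM294v3, plus strand, whose numbering is that of the reference and not of the tiles. For the spacers longer than 300 bases the most AT-rich window of 300 bases is given, and the spacer between mal1 and ght4 is given whole. Capitals mark runs of at least 6 A or 6 T (AAAAAA or TTTTTT, which covers both strands).
thi7 to urh1 (chrII:151114-151413): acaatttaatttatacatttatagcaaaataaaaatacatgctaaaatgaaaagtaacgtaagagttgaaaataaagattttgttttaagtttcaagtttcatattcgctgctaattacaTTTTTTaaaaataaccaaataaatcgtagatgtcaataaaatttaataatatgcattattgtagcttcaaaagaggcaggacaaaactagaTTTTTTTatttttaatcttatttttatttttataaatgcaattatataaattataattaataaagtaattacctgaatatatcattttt
mal1 to ght4 (chrII:155631-155771): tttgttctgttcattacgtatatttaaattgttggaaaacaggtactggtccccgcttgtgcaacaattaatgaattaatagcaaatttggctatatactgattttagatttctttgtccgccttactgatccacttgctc
ght4 to frp1 (chrII:159998-160297): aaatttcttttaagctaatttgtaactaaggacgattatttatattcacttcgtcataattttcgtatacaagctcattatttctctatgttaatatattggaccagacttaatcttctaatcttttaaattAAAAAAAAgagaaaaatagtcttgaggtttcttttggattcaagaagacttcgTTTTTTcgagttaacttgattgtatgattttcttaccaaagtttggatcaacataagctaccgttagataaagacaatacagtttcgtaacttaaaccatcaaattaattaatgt
frp1 to pcl1 (chrII:162866-163165): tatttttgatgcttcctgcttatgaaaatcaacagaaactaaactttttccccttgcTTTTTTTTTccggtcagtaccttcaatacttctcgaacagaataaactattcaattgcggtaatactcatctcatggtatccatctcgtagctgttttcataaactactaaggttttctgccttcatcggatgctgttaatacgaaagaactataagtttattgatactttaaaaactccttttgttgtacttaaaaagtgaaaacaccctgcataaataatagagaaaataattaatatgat

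The window from the convergent genes thi7 and urh1 had 18.7% GC, lower than all but 2.37% of the 2317 most AT-rich windows of spacers of at least 300 bases in the genome. By the offset between tile names and reference, 244 of its bases lie on the tile at 152.1 kb, with 0.59 in sap1-1 and 0.24 in wild-type, and 56 on the tile at 151.8 kb, with 2.34 in sap1-1 and 2.05 in wild-type. All ratios are log2 of Cy5 over Cy3, centred on the median of the array, so that 1 stands for 2 times the median. The short spacer between mal1 and ght4 had 34.8% GC and no run of 6 or more. Of its bases 39 lie on the tile at 156.3 kb and 102 on that at 156.6 kb, which together averaged 1.20 in sap1-1 and -1.04 in wild-type. The rest of these 2 tiles is mal1 and ght4 sequence, and the spacer is shorter than the placement error of about 1 tile. The window between the convergent genes ght4 and frp1 had 26.7% GC, close to the median of 27.0% for such windows, with tiles at 1.12 in sap1-1 and -0.86 in wild-type. The window between frp1 and pcl1 had 31.3% GC, and 296 of its bases lie on the tile at 163.8 kb, with -0.94 in sap1-1 and -1.95 in wild-type. The tile before it, at 163.5 kb, went the other way, with -3.21 in sap1-1 and -2.35 in wild-type. Runs of 6 or more stood in 80.4% of the 2317 windows of 300 bases, and in 32.9% of 89161 windows of the length of the spacer between mal1 and ght4, laid end to end over the genome.

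In both strains BrdU was high on the side of thi7, urh1 and the front of mal1. In sap1-1 it stayed above the median of the array through all of ght4 and came close to the median in frp1. In wild-type it dropped at the end of mal1, lay near the median in the coding part of ght4 and was low again in frp1. The profile of both strains by tile shows this as a shelf in sap1-1 where most wild-type tiles lie below the median of their array.

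**Figure D1:**
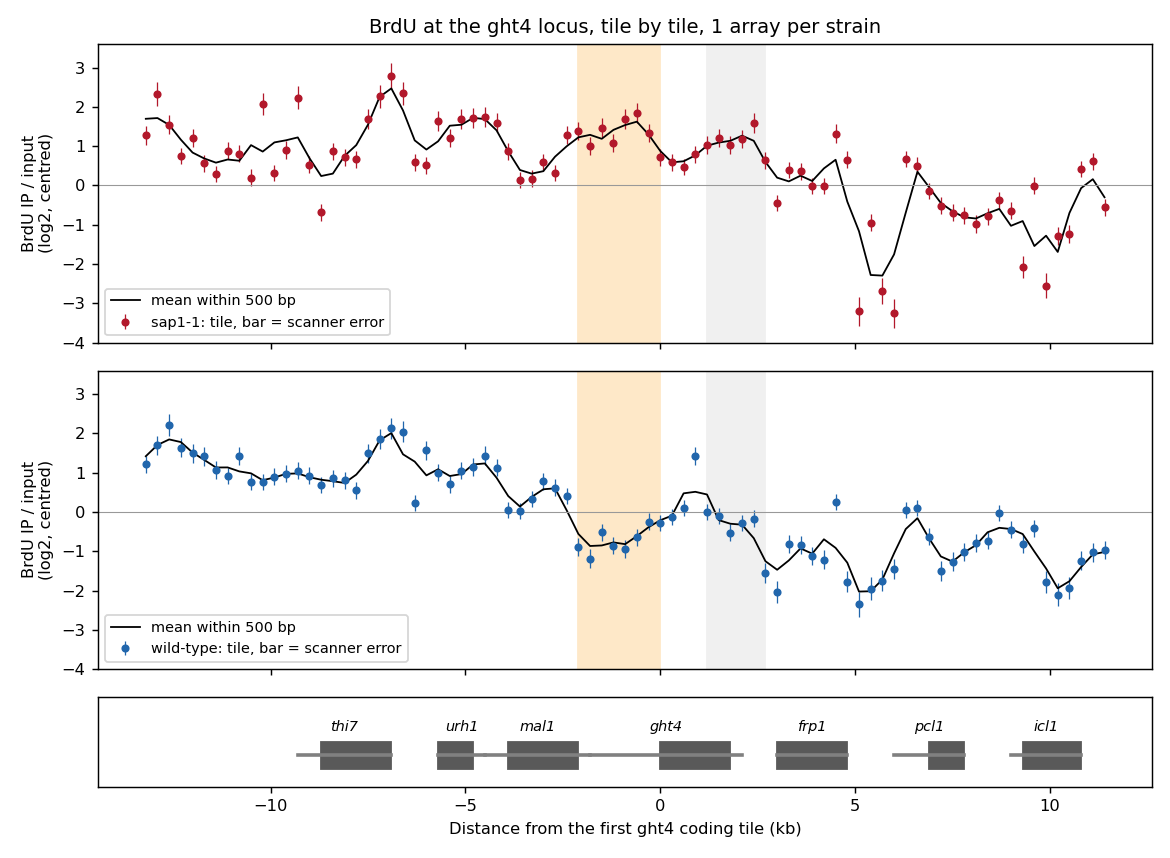
BrdU over input (log2, centred) at each tile of the locus against distance in kb from the first ght4 coding tile, for sap1-1 (top) and wild-type (below), with the scanner's error per spot as bars and the mean within 500 bp as a line. The orange band marks the 7 tiles of the leader segment, where sap1-1 lies between 1.01 and 1.84 and wild-type between -1.18 and -0.24. The grey band marks the 5 tiles from the end of ght4 into the spacer. Thick bars are coding parts and thin lines the rest of each gene, placed to within about 1 tile.

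Of the 5 segments into which the locus was divided, the one with the largest mean difference covered 7 tiles, 156.3 to 158.4 kb. The reference puts 1 of these tiles in the 3′ trailer of mal1 and the other 6 in the long 5′ leader of ght4, which is 1783 bases in the annotation, and none in the coding part. In sap1-1 the ratios from the mal1 side inwards were 1.38, 1.01, 1.47, 1.08, 1.69, 1.84 and 1.34. In wild-type the same tiles had -0.90, -1.18, -0.51, -0.85, -0.95, -0.64 and -0.24. Every sap1-1 value was above 1 and every wild-type value below 0. The limits of this segment, and of that at 159.6 to 161.1 kb, are those of stretches enriched in sap1-1 by the rule given below. High sap1-1 values there come with the choice of tiles, so the lack of overlap between the strains is a description only. The mean was 1.40 ± 0.30 in sap1-1 and -0.75 ± 0.31 in wild-type (SD over 7 tiles of 1 array), a difference of 2.16 ± 0.36 (SD over tiles) or 4.46-fold. The differences of the single tiles ran from 1.58 to 2.64. The 7 spots were spread over rows 59 to 446 and columns 1 to 76 of the array, and leaving out any 1 of them gave 2.08 to 2.25. Across the genome 10.3% of tiles were at least 2-fold higher in sap1-1 and 17.1% at least 2-fold lower, a background from which nothing is read for tiles chosen by this difference.

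Most of the difference of this segment lay in the immunoprecipitate channel. The Cy5 signal, centred on its own median, averaged 1.95 ± 0.67 in sap1-1 and -0.03 ± 0.72 in wild-type (SD over 7 tiles). The Cy3 input averaged 0.52 ± 0.50 in sap1-1 and 0.70 ± 0.68 in wild-type. The channels thus differed by 1.98 for Cy5 and by -0.17 for Cy3. The ratio and its channels by tile show the step in Cy5. Both channels are parts of the ratio that chose the locus.

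**Figure D2:**
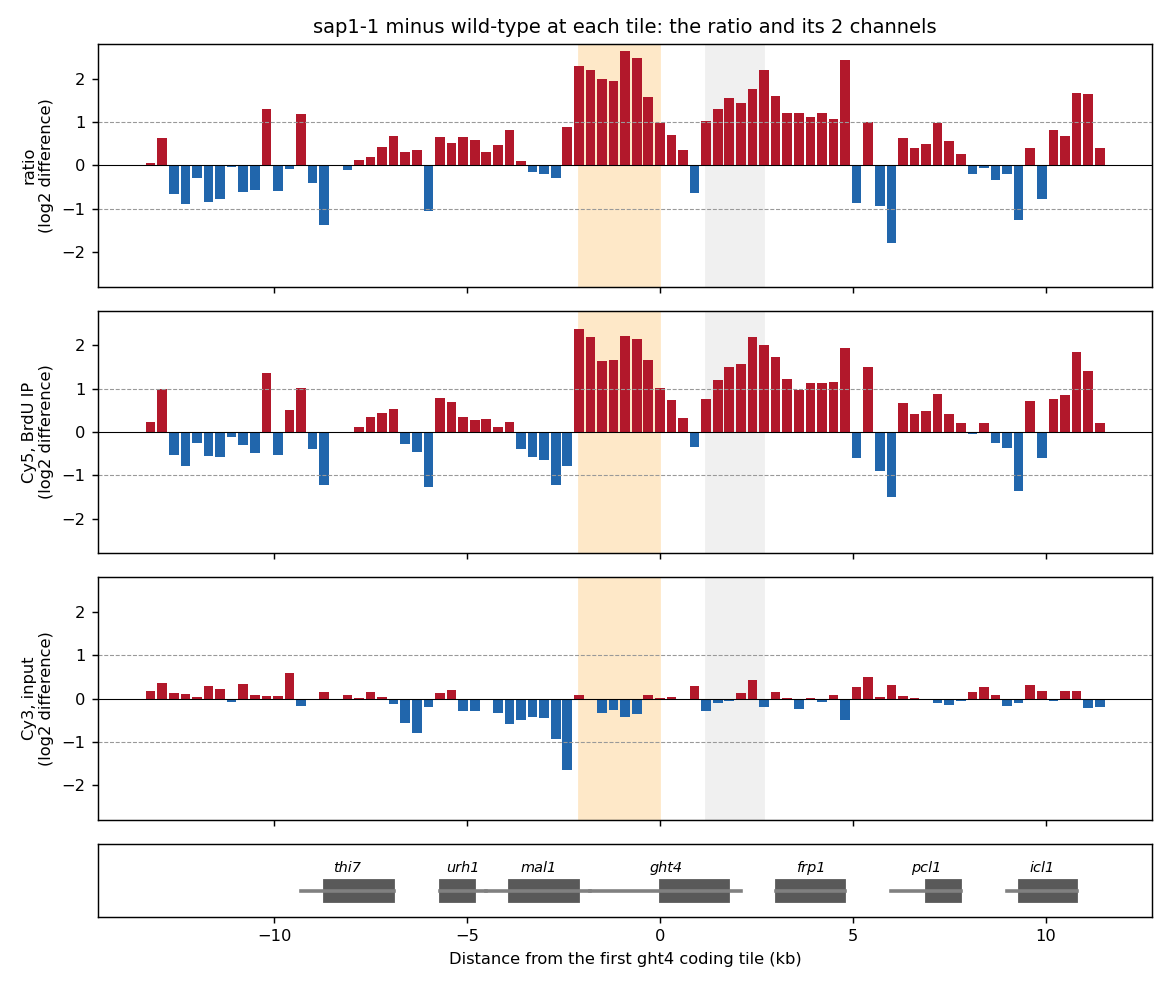
Difference of sap1-1 minus wild-type (log2) at each tile for the ratio (top), the Cy5 signal of the BrdU immunoprecipitate and the Cy3 signal of the input, against distance in kb from the first ght4 coding tile, with red bars higher in sap1-1, blue bars lower and dashed lines at 2-fold. Ratio and Cy5 are higher at all 7 tiles of the leader segment (orange band), by up to 2.64 and 2.37. The input dips by -1.65 at 1 tile, at the end of mal1.

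Against the rest of its own array the leader segment stood in opposite places. In sap1-1 its mean was higher than that of 90.3% of all 40397 windows of 7 neighbouring tiles, and in wild-type higher than 26.6%. Relative to the left flank (tiles from 145.1 to 156.3 kb) it was 0.30 higher in sap1-1 and differed by -1.82 in wild-type, a contrast within each array that does not depend on the centring. Relative to the right flank (tiles from 161.1 to 170.0 kb) it was 1.99 higher in sap1-1 and 0.35 higher in wild-type. The locus was chosen by the difference between the strains, and the limits of the segment are those of a stretch enriched in sap1-1. These places and contrasts come with that choice and are descriptions only. At least 2-fold higher in sap1-1 were 2.71% of these windows. Of the 40397 windows 35 (0.0866%) had a mean of at least 1 in sap1-1 and below 0 in wild-type, and 9 of these lay among the 77 windows of the locus, which overlap each other. The reverse pattern, at least 1 in wild-type and below 0 in sap1-1, was found in 289 windows.

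**Figure D3:**
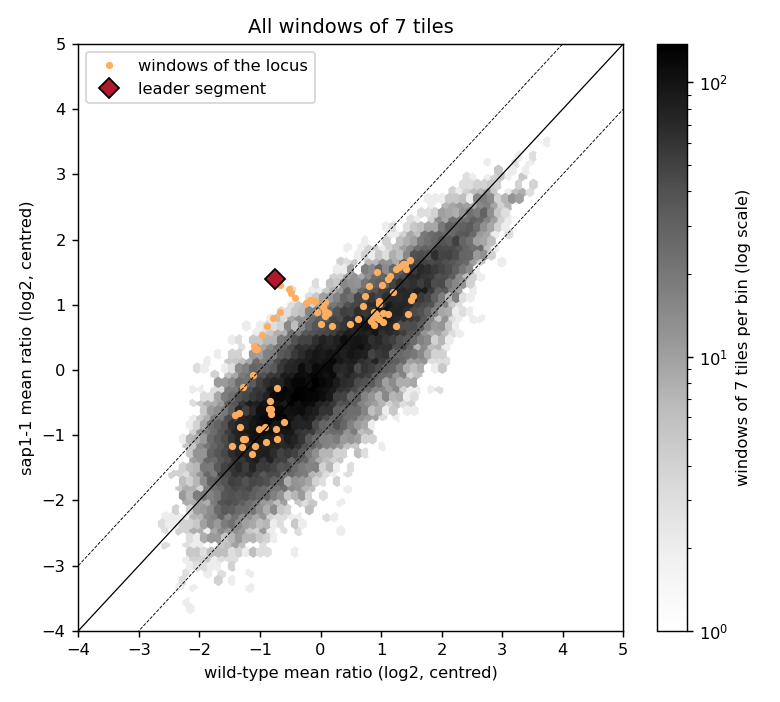
Mean ratio (log2, centred) of all 40397 windows of 7 tiles in sap1-1 (vertical) against wild-type (horizontal), in grey by number per bin, with the windows of the locus in orange and the leader segment as a red diamond. The solid line marks equal values and the dashed lines 2-fold. The leader segment lies at 1.40 in sap1-1 and -0.75 in wild-type, at the upper edge of the cloud.

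The edge of this segment was sharp in wild-type. From the tile at 156.0 kb, at the end of the mal1 coding part, to the tile at 156.3 kb the sap1-1 ratio moved by 0.10, and the wild-type ratio by -1.30. The small step in sap1-1 hides a rise in both channels, with Cy5 going from -0.06 to 1.34 and input from -1.37 to -0.08. In wild-type Cy5 went from 0.72 to -1.03 and input from 0.28 to -0.17. A drop at least that large was found at 1.96% of the 40993 pairs of neighbouring tiles in wild-type. Neighbouring tiles of the sap1-1 array scattered more, with an SD of their differences of 1.02 in sap1-1 and 0.60 in wild-type over the genome, so single sap1-1 tiles are less sure.

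The coding part of ght4 differed less than its leader. Its 6 tiles averaged 0.80 ± 0.28 in sap1-1 and 0.18 ± 0.63 in wild-type (SD over tiles), a difference of 0.62. One of them, the tile at 159.3 kb, went the other way, with 0.80 in sap1-1 and 1.43 in wild-type. The sequence under this tile is not unique, since 77.9% of its 30-base words also occur in ght3, another hexose transporter gene, on chromosome I. At ght3 itself the ratio was 0.88 ± 0.29 in sap1-1 and 2.14 ± 0.46 in wild-type (SD over 7 tiles), and the part of ght3 DNA in the value of the tile at 159.3 kb was not tested. Without that tile the 5 others of the coding part averaged 0.80 in sap1-1 and -0.07 in wild-type, a difference of 0.87 that ran from 0.35 to 1.29.

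From the end of ght4 the difference grew again. The 5 tiles 159.6 to 161.1 kb lie on the last coding tiles of ght4, its 3′ trailer and the spacer to frp1. Their ratios were 1.04, 1.20, 1.04, 1.17 and 1.59 in sap1-1, and 0.00, -0.09, -0.52, -0.27 and -0.16 in wild-type. The means were 1.21 ± 0.23 in sap1-1 and -0.21 ± 0.20 in wild-type (SD over 5 tiles), a difference of 1.42 ± 0.27 (SD over tiles). The strains did not overlap here either, but these tiles too have the limits of a stretch enriched in sap1-1, so nothing is read from that. Input differed by 0.03, and Cy5 by 1.44.

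The difference went on through frp1, although the level of BrdU did not. The 6 tiles of frp1, the ferric reductase gene, averaged 0.27 ± 0.60 in sap1-1 and -0.96 ± 0.74 in wild-type (SD over tiles). The difference was 1.23 ± 0.19 (SD over tiles) and ranged from 1.06 to 1.60, with all 6 tiles at least 2-fold higher in sap1-1. With centring on the mode it was 0.69, under 2-fold, with 1 of the 6 tiles at least 2-fold higher, and with loess 2 of the 6 were. In sap1-1 frp1 lay close to the median of the array, so it was less poor than in wild-type but not enriched. Over all 24 tiles from 156.3 to 163.5 kb, limits set after the values were seen, 23 were higher in sap1-1 and 20 at least 2-fold, and the exception was the tile at 159.3 kb. Of all tiles 44.2% were higher in sap1-1 by any amount. The mean over these tiles was 0.89 ± 0.58 in sap1-1 and -0.59 ± 0.74 in wild-type (SD over tiles).

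**Figure D4:**
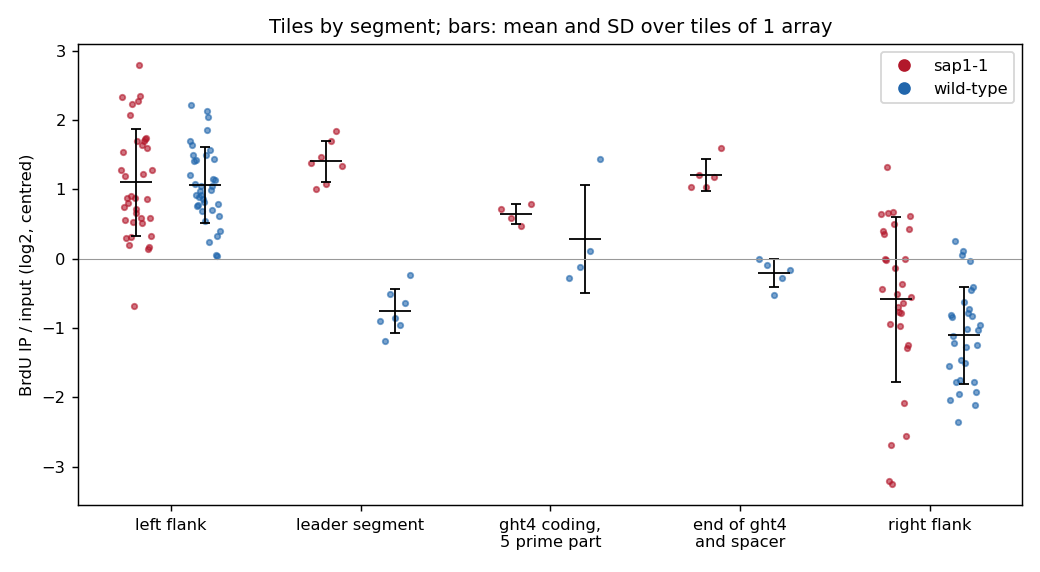
Ratio (log2, centred) of every tile in 5 consecutive segments of the locus, with sap1-1 in red on the left and wild-type in blue on the right of each pair, and black bars for the mean and SD over tiles of 1 array. The strains do not overlap in the leader segment or from the end of ght4 into the spacer, and they overlap in both flanks. The leader segment and the segment from the end of ght4 have the limits of stretches enriched in sap1-1. The high wild-type point in the coding part of ght4 is the tile at 159.3 kb at 1.43.

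At mal1, the maltase gene upstream of ght4, the mean ratios of the strains were close, but both channels averaged lower in sap1-1. The 6 tiles of its coding part averaged 0.56 ± 0.45 in sap1-1 and 0.37 ± 0.30 in wild-type (SD over tiles), a difference of 0.19 that ran from -0.29 to 0.87. Their Cy5 averaged 1.40 ± 1.00 in sap1-1 and 1.97 ± 0.85 in wild-type (SD over tiles), with differences from -1.23 to 0.23. Over these 6 tiles (154.5 to 156.3 kb) input was lower in sap1-1 at every tile, with differences from -1.65 to -0.42. The mean input was 0.81 ± 1.23 in sap1-1 and 1.56 ± 0.79 in wild-type (SD over 6 tiles), and its difference of -0.75 was matched or passed by 15 of 40492 windows of 6 tiles, this one included. The lowest was the tile at 156.0 kb, next to the leader segment, with input at -1.37 in sap1-1 and 0.28 in wild-type, a difference as low as at only 3 of the 41240 tiles, itself included. Cy5 was lower there too, at -0.06 in sap1-1 and 0.72 in wild-type. The next tile, 156.3 kb, had an input of -0.08 in sap1-1 and -0.17 in wild-type. Further into the leader segment input was again lower in sap1-1 at the 4 tiles from 156.9 to 157.8 kb, with differences from -0.43 to -0.26, and it was lower at 5 of the 7 tiles in all. Whether the input and the BrdU difference are linked was not tested.

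Up to the end of mal1 both strains had similar mean ratios with centring on the median. Over this left flank the difference was 0.03, but -0.50 with centring on the mode and 0.35 with centring on the surroundings. The 37 tiles of the left flank averaged 1.10 ± 0.78 in sap1-1 and 1.06 ± 0.55 in wild-type (SD over tiles), with 2 tiles at least 2-fold higher and 2 at least 2-fold lower in sap1-1. The highest tile in sap1-1 was that at 151.5 kb, in the spacer between thi7 and urh1, at 2.79 in sap1-1 and 2.13 in wild-type. The highest in wild-type was that at 145.8 kb, at the end of SPBC1683.04, at 1.55 in sap1-1 and 2.21 in wild-type. Smoothed ratios passed 1 over at least 3 tiles at 150.6 to 154.5 kb in sap1-1 (summit 2.47) and at 150.9 to 152.4 kb in wild-type (summit 2.01), both with the summit at 151.5 kb. At the left edge of the window the wild-type stretch was the longer one, at 144.3 to 146.4 kb in sap1-1 (summit 1.71) and at 135.6 to 147.9 kb in wild-type (summit 2.24). The nucleosidase gene urh1 averaged 1.57 ± 0.24 in sap1-1 and 0.97 ± 0.19 in wild-type (SD over 4 tiles), and thi7 1.04 ± 0.99 in sap1-1 and 1.03 ± 0.44 in wild-type (SD over 8 tiles). By the same rule sap1-1 had further enriched stretches at 148.5 to 149.4 kb, 156.3 to 158.4 kb and 159.6 to 161.1 kb, and wild-type had none from 152.4 kb to the end of the window. The first of these rests mostly on the single tiles at 148.2 kb (2.07 in sap1-1) and 149.1 kb (2.24 in sap1-1), with lower tiles between and beside them. Over the genome the rule gave 691 stretches in sap1-1 and 485 in wild-type, so nothing is read from the larger number in sap1-1 here.

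Beyond frp1, from 163.5 kb to the right edge of the window, mean BrdU was low in both strains. The tile at 163.2 kb, between this stretch and frp1, had 0.66 in sap1-1 and -1.77 in wild-type. The 22 tiles from 163.5 kb averaged -0.93 ± 1.17 in sap1-1 and -1.09 ± 0.71 in wild-type (SD over tiles), and 3 of them were at least 2-fold higher and 2 at least 2-fold lower in sap1-1. The iron transporter gene pcl1 averaged -0.57 ± 1.42 in sap1-1 and -0.78 ± 0.74 in wild-type, and the isocitrate lyase gene icl1 -1.30 ± 0.93 in sap1-1 and -1.25 ± 0.78 in wild-type (SD over 6 tiles each). The lowest tiles were rough in sap1-1, with -3.21 at 163.5 kb and -3.25 at 164.4 kb, against -2.35 and -1.45 in wild-type. The last gene of the window, SPBC1683.12 for a nicotinic acid transporter, averaged -0.72 ± 0.82 in sap1-1 and -1.19 ± 0.24 in wild-type (SD over 5 tiles). Over the 83 tiles of the locus 25 were at least 2-fold higher in sap1-1 and 4 at least 2-fold lower, where 10.3% of all tiles were higher and 17.1% lower by that much. With centring on the mode of each array the counts were 14 higher and 15 lower. The ratio was at least 1 at 30 of the 83 tiles in sap1-1 and at 19 in wild-type, where 23.1% of all tiles reached 1 in sap1-1 and 24.6% in wild-type.

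Set against all genes, ght4 stood at different ranks in the strains. Over its 13 tiles, leader included, it averaged 1.10 ± 0.41 in sap1-1 and -0.30 ± 0.65 in wild-type (SD over tiles), a difference of 1.39 and, without the tile at 159.3 kb, of 1.56. Its level was above about 86.7% of protein-coding genes in sap1-1 and 43.4% in wild-type. For frp1 these shares were 66.1% in sap1-1 and 20.9% in wild-type, and for mal1 82.6% in sap1-1 and 66.0% in wild-type. Among the 4122 genes with at least 4 tiles the difference of ght4 ranked 34 and that of frp1 55, where 2.77% of genes were at least 2-fold higher in sap1-1 and 8.13% at least 2-fold lower.

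The other hexose transporter genes did not share the difference of ght4. All 7 (ght1, ght2, ght3, ght5, ght6, ght7 and ght8) were lower in sap1-1, except that ght6 turned higher with centring on the surroundings (0.11) and after division by the slope between the arrays (0.15). Their median difference was -0.49 and the range -1.46 to -0.21, where the median of all genes with at least 4 tiles was -0.14. Of all tiles 44.2% were higher in sap1-1 by any amount. By their locus tags ght1 and ght8 are neighbours, as are ght5 and ght6, so the 7 genes are not 7 separate loci. None of the 7 was 2-fold higher and 2 were 2-fold lower. Of all genes with at least 4 tiles 2.77% were higher and 8.13% lower by that much. The 2 lower ones were ght7, at 0.11 ± 0.89 in sap1-1 and 1.57 ± 0.37 in wild-type (SD over 6 tiles), and ght3, given above. Their count was 4 with centring on the mode (median of the 7 -1.03) and 1 with loess (median -0.25) or with centring on the surroundings (median -0.18). The wild-type levels of the 7 lay between 1.43 and 2.29, so ght4 was the only member below the median of the wild-type array, although with centring on the mode its wild-type mean was 0.13. Of the 13 ght4 tiles 6 lie in the leader. Its 6 coding tiles alone averaged 0.18 in wild-type, above the median, or -0.07 without the tile at 159.3 kb. Leader and coding tiles were not set apart for the other 7 genes. In sap1-1 ght4 lay within their range of 0.11 to 2.01.

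**Figure D5:**
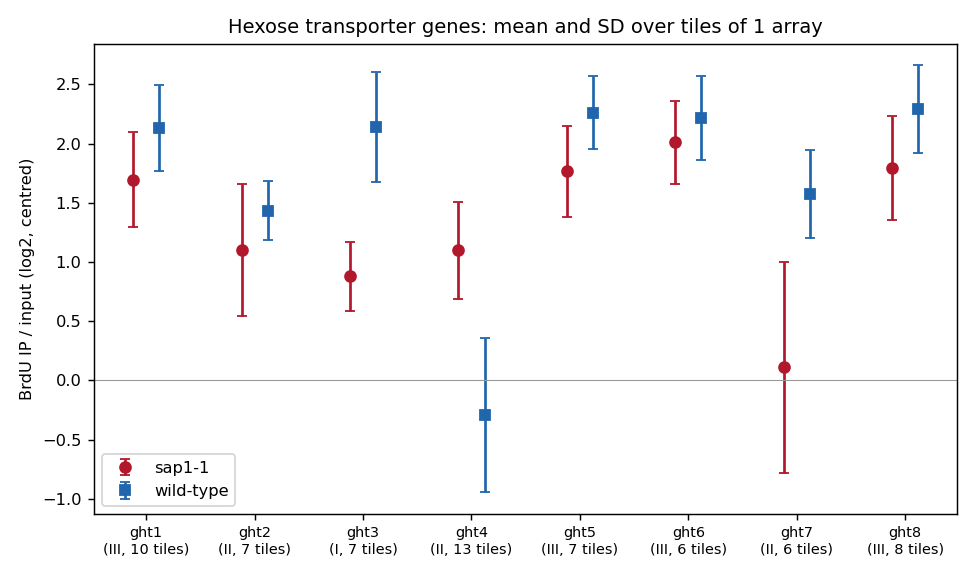
Mean ratio (log2, centred) of the 8 hexose transporter genes, sap1-1 as red circles and wild-type as blue squares, with the chromosome and number of tiles under each name and bars for the SD over tiles of 1 array. ght4 is the only one plotted with a higher mean in sap1-1, at 1.10 in sap1-1 and -0.30 in wild-type, and ght6 joins it under 2 other scalings (by 0.11 and 0.15).

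Genes with functions related to the neighbours of ght4 were not 2-fold higher in sap1-1 under any of the 9 other scalings or the one reported. For so few genes this is close to the share of all genes given below, so nothing is read from it. Of 2 other genes of carbohydrate breakdown, the invertase gene inv1 had 1.02 ± 1.35 in sap1-1 and 1.75 ± 0.78 in wild-type (SD over 9 tiles), and the alpha-glucosidase gene agl1 -0.32 ± 0.56 in sap1-1 and -0.43 ± 0.53 in wild-type (SD over 10 tiles). Of 9 other iron and haem genes (frp2, fio1, fip1, str1, str2, str3, shu1, fep1 and php4) none was 2-fold higher in sap1-1 and 2 were 2-fold lower, with a median difference of -0.17. The 2 were php4 and shu1, and shu1 has only 2 tiles and a locus tag between those of ght3 and str3. By their locus tags fio1 and fip1 are neighbours too, so the 9 genes are not 9 separate loci. The count of 2-fold lower genes was 3 with centring on the mode (median of the 9 -0.71) and 1 with centring on the surroundings (median 0.15). Of all genes with at least 4 tiles 2.77% were 2-fold higher and 8.13% 2-fold lower. The nearest relative by function, the ferric reductase gene frp2, had 0.04 ± 0.78 in sap1-1 and 0.21 ± 0.23 in wild-type (SD over 5 tiles).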

How the data were processed

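The deposited files are 1 scanner output per array, made with Agilent Feature Extraction 10.7.3.1, per the file headers, with both arrays on 1 slide. The processed signals that the authors deposited are linear intensity values, background-subtracted, spatially detrended and scaled by 1 linear factor per dye, per the file headers. Each spot also has a deposited log10 ratio of Cy5 over Cy3. For the tile names, no source used here gives a genome build.

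Of 41251 chromosome tiles, 11 marked as non-uniform or population outliers were left out (0 at the locus), which left 41240. Ratios were taken on the log2 scale from the processed signals and each array was centred on its median, with no loess or quantile step. No tile of the locus was saturated or failed to lie well above background. Median signals were 911.8 (Cy3) and 870.6 (Cy5) for sap1-1 and 1054 (Cy3) and 913.1 (Cy5) for wild-type. The number of arrays limits the precision.

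Genes came from the annotation of ASM294v3. Tile names run 930 bp ahead of its numbering on this arm, found by sliding GC content (300 bp windows in steps of 30 bp) along the input signal (r = 0.566 over the arm), and 5 blocks of the arm gave reference minus tile offsets of -930 to -870 bp. The locus with 50 kb either side gave -990 bp (r = 0.666). A tile was given to a gene by its centre, to within about 1 tile. Long non-coding transcripts were not used. The region and offset calculations were tested on simulated data. Enriched stretches were runs of at least 3 tiles with a mean within 500 bp of at least 1, merged under 1000 bp apart. Named genes were the members, every protein-coding gene of the window, fixed lists of hexose transporter, carbohydrate and iron genes, and the 5 genes most like ght4. Members and lists were chosen with earlier results of these data known. Python 3.11.15, numpy 2.4.6, pandas 2.3.3, R 4.3.3 and limma 3.58.1 (normexp with offset 50, loess) were used. The alternatives are given in the closing section.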

Additional observations from a re-analysis of the deposited data

How the results depend on the processing

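The mean difference of the leader segment (2.16) stayed at least 2-fold in all 19 alternatives, from 1.62 with centring on the mode to 2.47 with centring on the 50 kb either side. Loess within each array gave 1.70. Some of the 19 could not fall under 2-fold, because every tile of the segment differed by at least 1.58. These were the 7 that left out 1 tile, the median over tiles and the segment narrowed by 1 tile at both ends, and nothing is read from them. Leaving out 1 tile at a time, and applying the other scalings to the listed genes and to the tiles of frp1, were chosen after the data had been seen. With centring on the mode the difference of the segment was 1.63 for Cy5 alone, that of tiles 159.6 to 161.1 kb was 0.88, under 2-fold, and the wild-type mean of the leader segment was -0.33. The same setting left 14 tiles of the locus at least 2-fold higher and 15 at least 2-fold lower in sap1-1, and put the median difference of the locus at -0.07 (0.47 with the median). It puts the median difference of all tiles at -0.66 (-0.12 with the median). Centring on the surroundings gave 1.74 for tiles 159.6 to 161.1 kb and -1.37 for the wild-type mean of the leader segment. Loess lowered the sap1-1 mean of that segment to 0.87. Loess, quantile scaling and centring on the surroundings each left 2 tiles 2-fold lower. Of the gene bodies, frp1 (0.69) and ght4 (0.86) lay under 2-fold with centring on the mode, and in the other 11 alternatives each stayed above it. No paired analysis was possible because each strain has 1 array. Strain cannot be told apart from culture, immunoprecipitation or array, with 1 of each.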

Other observations

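The leader segment of ght4 was not the largest difference of its length. Of all windows of 7 tiles, 4 overlapping ones on chromosome II, with first tiles from 3128.1 to 3129.0 kb, were higher in sap1-1 by 2.23 to 2.77. They lie at nuc1, the gene of the largest subunit of RNA polymerase I, and at its neighbour syp1. Their means ran from 0.08 to 0.99 in sap1-1 and from -2.23 to -1.52 in wild-type. The highest sap1-1 mean there lay just under 1, the threshold that set the limits of the leader segment. No contrast with ght4 is read from that threshold.

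By gene, the 5 with the largest mean difference outside the locus, a likeness to ght4 in the size of the difference on these 2 arrays only, were git7 (2.02), sur2 (1.95), tae1 (1.80), pof2 (1.65) and ask1 (1.65). Only tae1 had a mean of at least 1 in sap1-1, at 1.37 ± 0.44 in sap1-1 and -0.43 ± 0.37 in wild-type (SD over 4 tiles). The sap1-1 means of the other 4 lay between -0.35 and 0.65, and their wild-type means between -2.01 and -1.01.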
